A study of Mus musculus with 12 samples.

Results

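The genes described here are Cd40, the BAFF-system receptors Tnfrsf13b and Tnfrsf13c, the adaptors Traf1 to Traf6, and Tnfaip3. They were taken by name as receptors and adaptors of the TNF receptor family, because CD40 ligand was part of the stimulus. Every array probe whose transcript accession belongs to 1 of these 10 genes was used, which gave 13 probes. The array named 20018 genes in all. Each of the 10 genes had a probe well above background on all 12 arrays, and the brightest probe of each gene was tested.

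CD40 on B cells receives its ligand from activated helper T cells. Tnfrsf13c encodes BAFF-R, which carries the survival signal of the cytokine BAFF, and Tnfrsf13b encodes TACI, which binds BAFF and APRIL. These receptors have no enzyme activity and signal through TRAF proteins, most of them RING ubiquitin ligases that lead to the classical NF-kB pathway or, by releasing the kinase NIK, to the alternative one. TRAF3 together with TRAF2 keeps NIK low in resting B cells. Tnfaip3 encodes A20, a ubiquitin-editing enzyme that is itself an NF-kB target and limits the same pathway.

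RNA came from splenic B cells of 2 genotypes, each measured resting and stimulated. Control cells were B1-8hi:Sub1fl/fl, which carry a knock-in heavy chain specific for the hapten NP and a floxed Sub1 gene without Cre. Knockout cells were B1-8hi:Sub1fl/fl-Mb1-Cre, in which Cre is expressed from the Cd79a (Mb1) locus in the B lineage and deletes Sub1, the gene of the chromatin protein PC4. Loss of Sub1, presence of Cre and the altered Cd79a locus come together in these cells and cannot be told apart. Resting cells were labelled naive and as profiled without differentiation stimuli. Stimulated cells were cultured for 72 h with IL-2 (100 U/mL), IL-4 (5 ng/mL), IL-5 (1.5 ng/mL), CD40 ligand (0.2 ng/mL) and NP-ficoll (0.01 ng/mL), so a change on stimulation answers to the whole mixture and to culture, not to CD40 ligand alone. Each of the 4 groups held 3 replicates on 1-colour arrays. Nothing in the labels says that replicates came from different mice, so each p-value refers only to the spread among the samples at hand, part or all of which may be technical.

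Between 24.3% and 76.8% of spots on an array were well above background, and no spot was saturated. Replicates 1 and 2 of every group lay on slide 1 (8 arrays) and replicate 3 on slide 2 (4 arrays). Sub1 read 6.0 to 6.07 in resting control cells, 7.79 to 8.19 in stimulated control cells, 5.37 to 5.80 in resting knockout cells and 6.72 to 6.92 in stimulated knockout cells, and was 2.31-fold lower in stimulated knockout than control cells (limma adjusted p = 0.0114). In resting cells it was 1.30-fold lower (adjusted p = 0.268). The labels do not say which part of Sub1 is floxed. Whether the probe lies in the deleted part is thus unknown, and these levels do not measure the deletion. Cd79a, the locus that carries Cre, was 2.14-fold lower in stimulated knockout cells (adjusted p = 0.0344) and 2.92-fold lower in resting ones (adjusted p = 0.0948). The B cell markers Ms4a1 and Cd79b were well above background on all 12 arrays. Csf1r, a myeloid marker, was too, and Cd3e, a T cell marker, on 11. Levels are log2 intensities relative to the 75th percentile of the array, given per array or as mean ± SD (n = 3). Changes are log2 differences with the standard error (SE), tested with limma, and "called" means a Benjamini-Hochberg adjusted p below 0.05 over 22981 features.

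Stimulation changed most of this receptor and adaptor set in control cells. Cd40, Traf1, Traf2, Traf3, Traf5 and Tnfaip3 fell and Traf4 rose, so 7 of the 10 genes were called, 6 lower and 1 higher, against 27.8% of all features (13.1% lower and 14.7% higher). The largest fall was that of Cd40, the receptor for the ligand in the mixture. The median change of the 10 genes was -0.83, beside 0.04 for all features. In knockout cells the called genes were Cd40 and Traf3, both lower, or 2 of 10 against 16.1% of all features (5.2% lower and 10.9% higher), with a median of -0.37 beside 0.10. All 10 genes were well above background on all 12 arrays, as were 10275 features. With only these features tested, 49.1% were called in control cells (1669 lower and 3372 higher) and 36.7% in knockout cells (837 lower and 2933 higher). Of the 10 genes, 10 and 4 were then called. The resting and stimulated control arrays did not overlap for any of the 10 genes (7 lower and 3 higher when stimulated), compared with 19.5% of features lower and 20.2% higher without overlap. Those of knockout cells did not overlap for 5 lower and 2 higher genes, compared with 12% and 21.7% of features. The 7 called changes in control cells and the 2 in knockout cells all had the same direction on each slide. In bulk RNA, fewer cells of a type and less RNA per cell cannot be told apart.

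**Figure D1:**
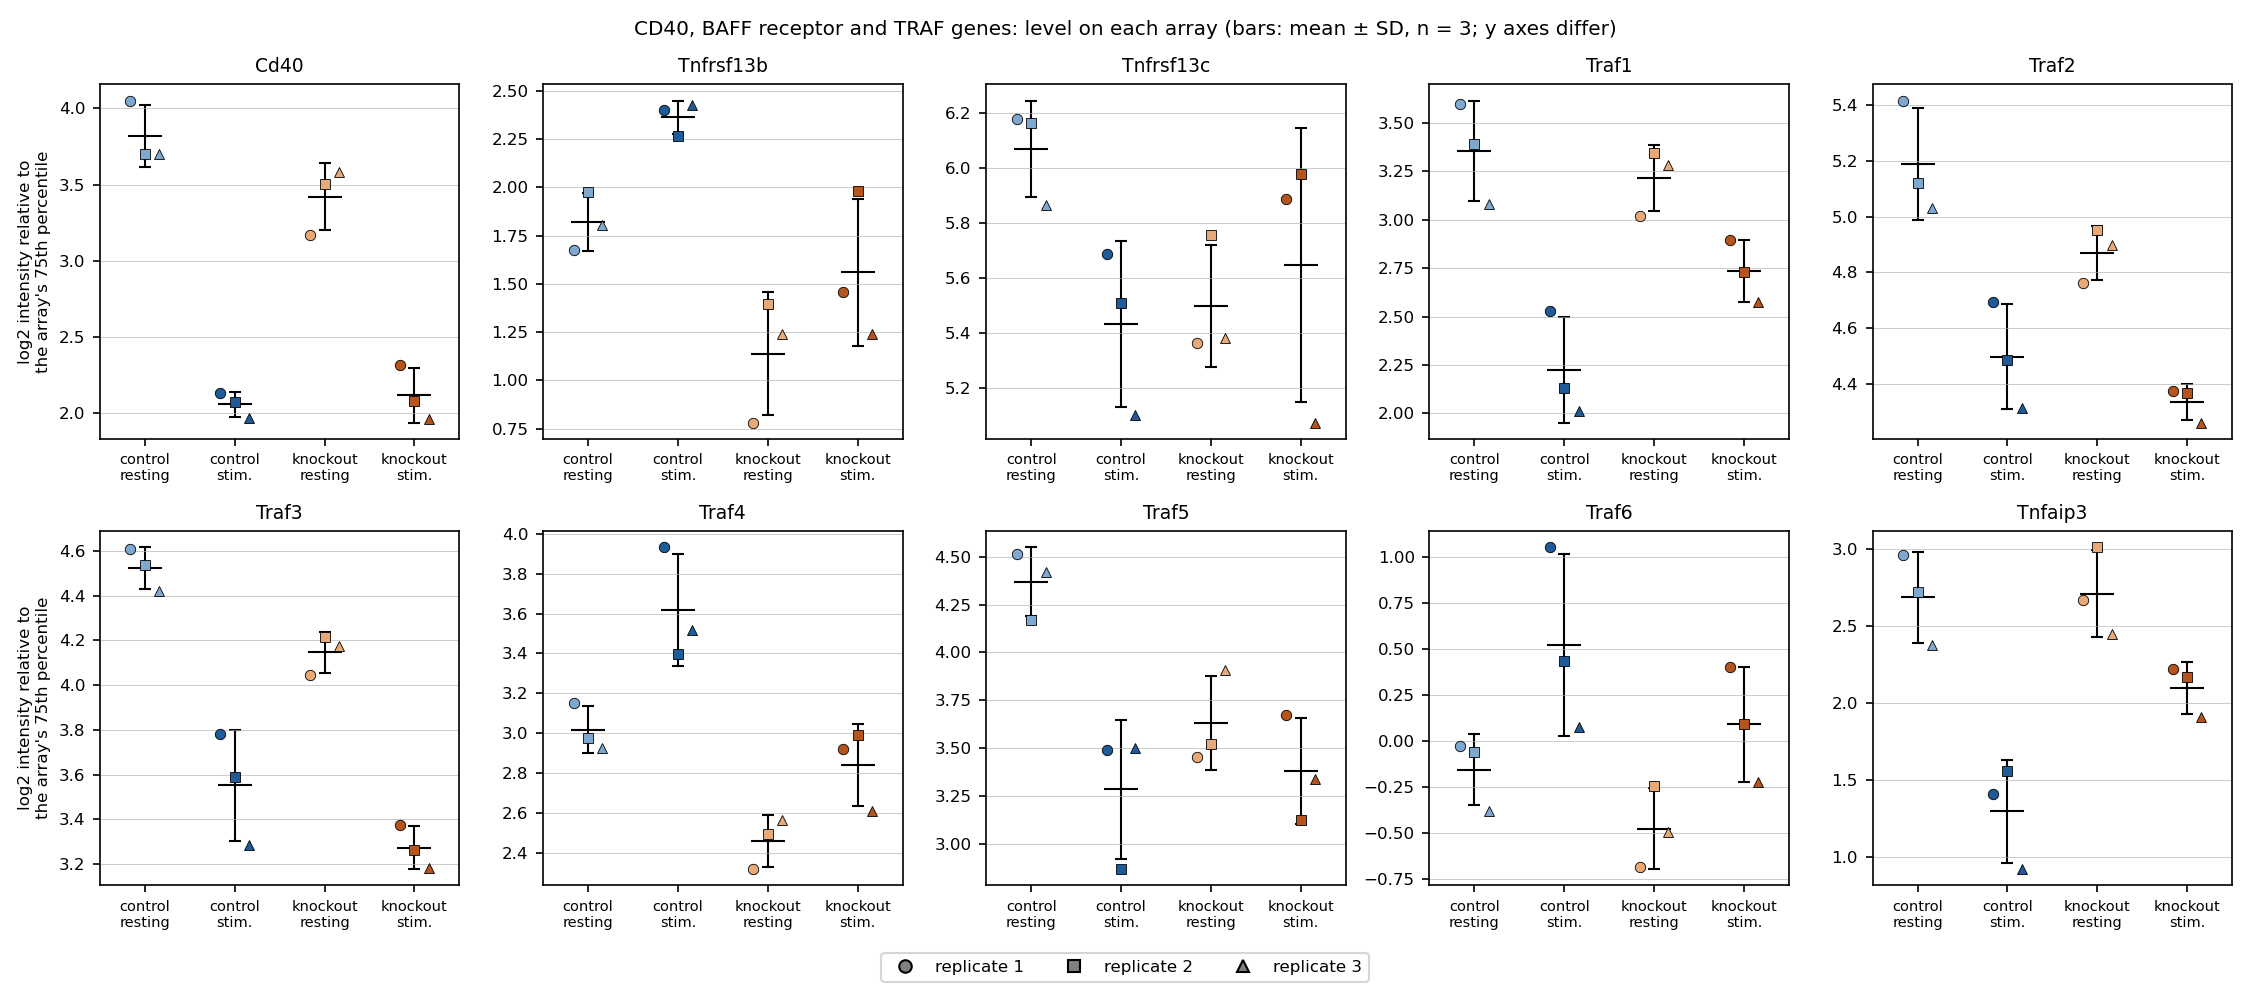
Level of the tested probe of each of the 10 genes on every array (y axis, log2 intensity relative to the 75th percentile of the array) in the 4 groups (x axis), with 1 point per array and bars for the mean ± SD (n = 3); the y axes differ between genes. Cd40, Traf3 and Tnfaip3 lie lower in stimulated than in resting cells, and Tnfrsf13b and Traf4 lie lower in knockout than in control cells in both states.

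Cd40 read 4.05, 3.70 and 3.70 in resting control cells and 2.13, 2.07 and 1.97 after stimulation. In knockout cells it read 3.17, 3.51 and 3.58 at rest and 2.32, 2.08 and 1.96 after stimulation. Every stimulated array lay below every resting array in both genotypes. The fall was 3.38-fold in control cells (-1.76, SE 0.19, adjusted p = 8.22e-05) and 2.47-fold in knockout cells (-1.30, SE 0.19, adjusted p = 0.00115). With arrays scaled to their median the knockout call was lost (adjusted p = 0.0737). The stimulated groups of both genotypes overlapped, 2.06 ± 0.08 for control and 2.12 ± 0.18 for knockout. Their difference of 0.06 had an SE of 0.19 (adjusted p = 0.871).

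Neither receptor of the BAFF system was called on its tested probe. Tnfrsf13c (BAFF-R) read 6.18, 6.16 and 5.87 in resting and 5.69, 5.51 and 5.10 in stimulated control cells. The groups did not overlap, but the change of -0.64 (SE 0.27) was not called (adjusted p = 0.114); with the replicate number as a block it was (adjusted p = 0.0348). In knockout cells Tnfrsf13c read 5.36, 5.76 and 5.38 at rest and 5.89, 5.98 and 5.08 when stimulated, with overlap, and its change was 0.37 on slide 1 and -0.31 on slide 2. Tnfrsf13b (TACI) had a higher mean after stimulation on its brighter probe. It read 1.68, 1.98 and 1.80 in resting and 2.40, 2.27 and 2.43 in stimulated control cells, a change of 0.55 (SE 0.24, adjusted p = 0.118) without overlap. In knockout cells it read 0.78, 1.40 and 1.24 at rest and 1.46, 1.98 and 1.24 when stimulated, with overlap and a change of 0.42 (SE 0.24, adjusted p = 0.294).

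The second probe of Tnfrsf13b gave a larger response. This dimmer probe, singled out after its values were seen, read -1.14, -1.32 and -1.89 in resting and 0.74, 0.95 and 0.54 in stimulated control cells. In knockout cells it read -2.89, -1.99 and -2.90 at rest and -0.65, -0.28 and -0.92 when stimulated. It was well above background on 10 arrays and on only 1 of the 3 resting knockout arrays. Fitted with every probe as its own feature (26296 features), it rose 4.57-fold in control cells (2.19, SE 0.30, adjusted p = 0.000354) and 3.94-fold in knockout cells (1.98, SE 0.30, adjusted p = 0.00147). On a given array the dimmer minus the brighter probe was -4.14 to -2.82 at rest and -2.26 to -1.32 after stimulation. For Tnfrsf13c the same difference was -5.15 to -4.49 at rest and -4.98 to -4.31 after stimulation. The ranges of the 2 states overlapped for Tnfrsf13c and not for Tnfrsf13b, which is given as a description because the pair was picked for it. Traf2 also had a second probe, which was well above background on 5 arrays and was not tested.

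**Figure D2:**
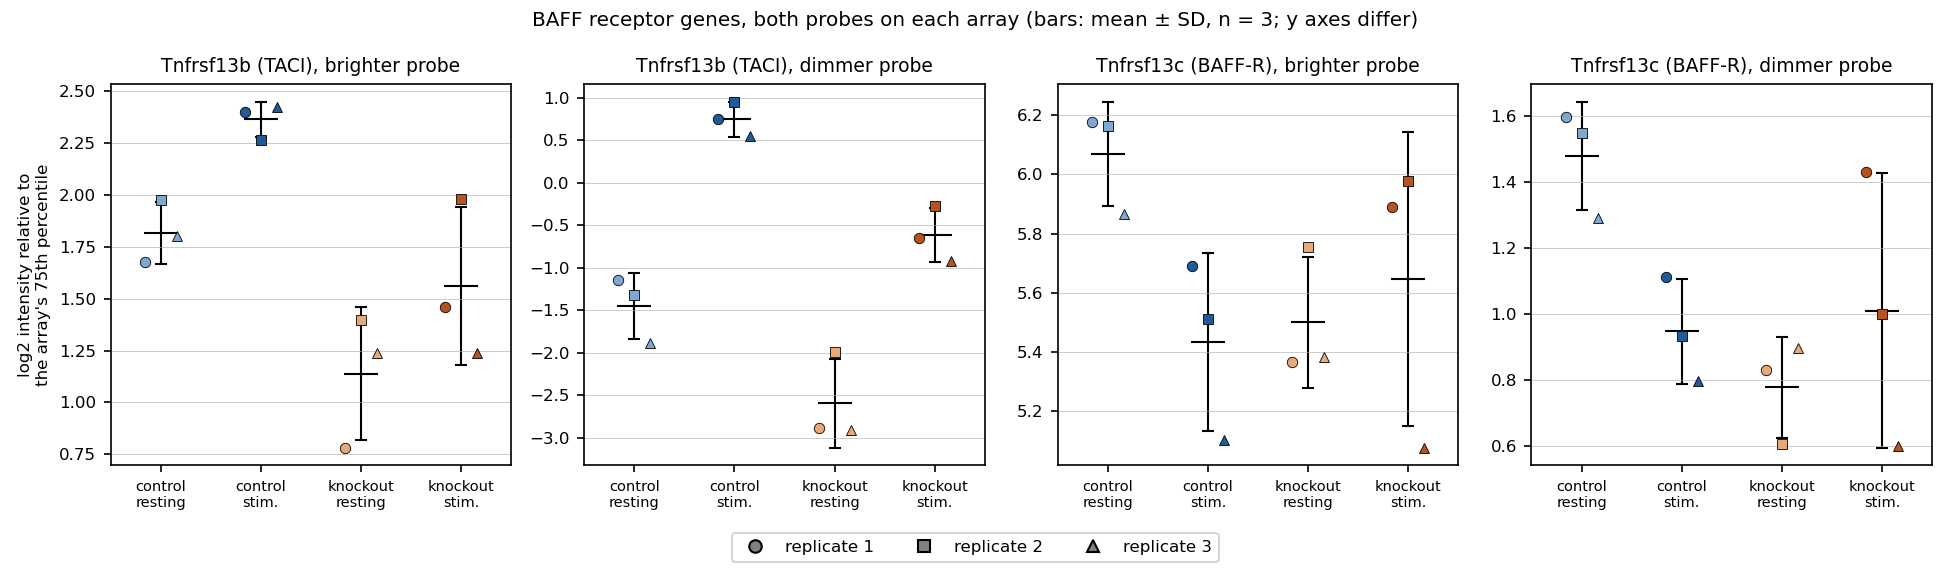
Level on every array (y axis, log2 intensity relative to the 75th percentile of the array) of both probes of Tnfrsf13b and of Tnfrsf13c in the 4 groups (x axis), with 1 point per array, bars for the mean ± SD (n = 3) and y axes that differ between probes. Dimmer minus brighter, the Tnfrsf13b probes differed by -4.14 to -2.82 at rest and -2.26 to -1.32 after stimulation, whereas the ranges of the Tnfrsf13c probes (-5.15 to -4.49 and -4.98 to -4.31) overlapped.

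Among the TRAF adaptors, 4 were called lower and 1 higher in stimulated control cells. Traf1, an adaptor without a RING domain that is itself induced by NF-kB, read 3.60, 3.39 and 3.08 at rest and 2.53, 2.13 and 2.01 when stimulated. It fell 2.19-fold (-1.13, SE 0.21, adjusted p = 0.00243), a call lost with median scaling (adjusted p = 0.0801). In knockout cells Traf1 read 3.02, 3.34 and 3.28 at rest and 2.90, 2.73 and 2.58 when stimulated, a change of -0.48 (SE 0.21, adjusted p = 0.172). The stimulated arrays lay below the resting ones in both genotypes.

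Traf3, the adaptor that recruits NIK for degradation, read 4.61, 4.54 and 4.42 in resting and 3.78, 3.59 and 3.29 in stimulated control cells. In knockout cells it read 4.05, 4.22 and 4.18 at rest and 3.37, 3.26 and 3.18 when stimulated. It was the TRAF gene with a called fall in both genotypes, 1.96-fold in control (-0.97, SE 0.18, adjusted p = 0.0021) and 1.83-fold in knockout cells (-0.87, SE 0.18, adjusted p = 0.00723). With median scaling neither call held (adjusted p = 0.121 and 0.286), and with no filter on dim probes the knockout call was lost (adjusted p = 0.0933). Traf2, which bridges TRAF3 to the cIAP ubiquitin ligases, read 5.42, 5.12 and 5.03 in resting and 4.69, 4.48 and 4.31 in stimulated control cells, a fall of 1.62-fold (-0.69, SE 0.18, adjusted p = 0.0139). That call was lost in 5 of 25 settings: without control resting replicate 1 (adjusted p = 0.0699), without both arrays of control replicate 1 (0.0504), with median scaling (0.306), with no filter (0.128) and with 2 groups only (0.0884). Its change in knockout cells was -0.54 (SE 0.18, adjusted p = 0.0685), and there too the states did not overlap. With the slide as a block it was called (adjusted p = 0.0452).

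Traf5, which binds CD40 together with TRAF3, read 4.52, 4.17 and 4.42 in resting and 3.49, 2.87 and 3.5 in stimulated control cells, a fall of 2.12-fold (-1.08, SE 0.24, adjusted p = 0.00662) that was not called with median scaling (adjusted p = 0.113). In knockout cells it read 3.46, 3.52 and 3.91 at rest and 3.67, 3.12 and 3.34 when stimulated. The resting knockout arrays were already below the resting control arrays, the knockout states overlapped, and the change was -0.25 (SE 0.24, adjusted p = 0.596). Traf4, an atypical member of the family, read 3.15, 2.98 and 2.92 in resting and 3.93, 3.40 and 3.52 in stimulated control cells, a rise of 1.51-fold (0.60, SE 0.20, adjusted p = 0.0454). This call was lost in 17 of 25 alternative settings, and of the fits that left out 1 array it held only without control stimulated replicate 2 or knockout stimulated replicate 3. Traf6, the TRAF of the TAK1 branch, read -0.03, -0.06 and -0.38 in resting and 1.05, 0.44 and 0.07 in stimulated control cells; the change of 0.68 (SE 0.27) was not called (adjusted p = 0.0956).

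Tnfaip3 (A20) read 2.96, 2.72 and 2.37 in resting and 1.41, 1.56 and 0.92 in stimulated control cells. It fell 2.62-fold (-1.39, SE 0.24, adjusted p = 0.00163), and this call and that of Cd40 in control cells held in all 25 alternative settings. In knockout cells Tnfaip3 read 2.66, 3.01 and 2.45 at rest and 2.22, 2.17 and 1.91 when stimulated. The states did not overlap there, and the change of -0.61 (SE 0.24) was not called (adjusted p = 0.127). With the slide as a block it was (adjusted p = 0.0276).

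**Figure D3:**
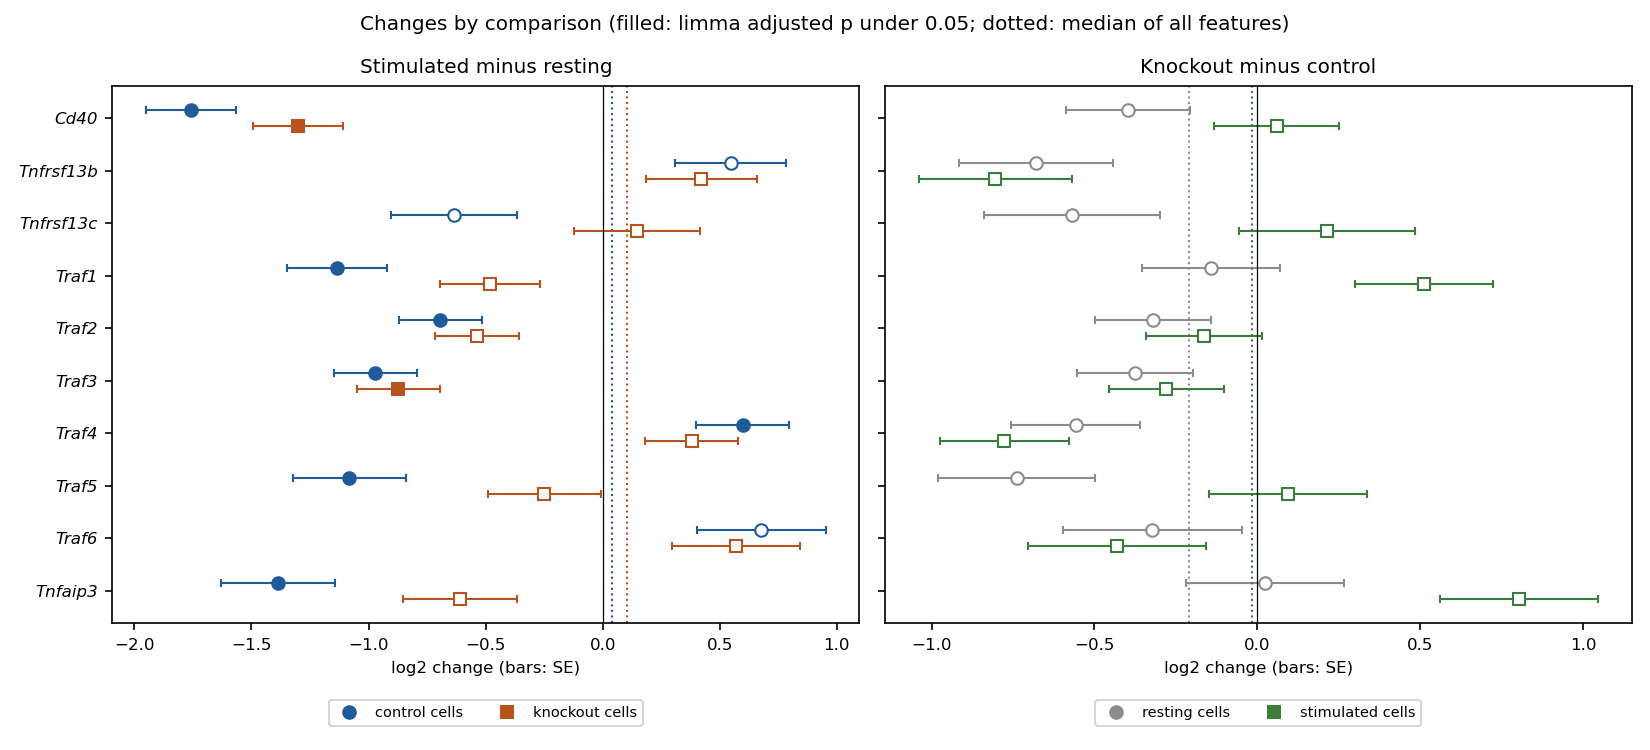
Log2 change with its SE (x axis) for each of the 10 genes (y axis), stimulated minus resting in the left panel and knockout minus control in the right panel, with filled symbols for limma adjusted p under 0.05 and a dotted line at the median of all features. Filled symbols appear only on the left: 7 for control cells and 2 for knockout cells.

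Genes of this set that fell included NF-kB targets, so the start-site regions were searched for the sequence that NF-kB dimers bind. RefSeq windows on the GRCm38.p6 build, 250 bases before to 50 after each start, were found for 9 of the 10 genes (10 windows, 2 of them for Tnfaip3); Cd40 had no entry. The pattern searched was GGG, then any 2 bases, then TTTCC. Read on both strands, it occurred in 3 of the 10 windows, those of Tnfaip3, Traf3 and Traf2, and in 1.63% of all 32851 windows. The 100 bases before the start of Tnfaip3 and Traf3, a 30-base stretch after the start of Traf2, and the 100 bases before the start of Traf1, which fell as well but has no match in its window, are shown to set these genes side by side. Capitals mark the match, and each is written 5′ to 3′ in the direction of the gene.
Tnfaip3, chr10:19015411-19015510, minus strand: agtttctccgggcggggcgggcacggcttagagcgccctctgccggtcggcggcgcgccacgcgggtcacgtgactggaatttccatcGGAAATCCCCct
Traf3, chr12:111166270-111166369, plus strand: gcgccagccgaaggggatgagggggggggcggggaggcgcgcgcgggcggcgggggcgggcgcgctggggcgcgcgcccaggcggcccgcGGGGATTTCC
Traf2, chr2:25546891-25546920, minus strand: cgcggcagcggGGGTGTTTCCcggcgagcg
Traf1, chr2:34961773-34961872, minus strand: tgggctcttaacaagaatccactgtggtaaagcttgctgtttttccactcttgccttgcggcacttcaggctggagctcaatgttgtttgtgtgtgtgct
The Tnfaip3 match lies 12 to 3 bases before the start, on the strand opposite to the gene, and that of Traf3 10 to 1 bases before it. The Traf2 match lies 32 to 41 bases into the transcript. The core bound by Ikaros, TGGGAA on either strand, occurred in 2 member windows, those of Tnfaip3 and Traf5, and in 25.6% of all windows. The composite site of ETS and IRF factors, written as GGAA, any 2 bases and GAAA and read on both strands, occurred in none of the 10 windows and in 2.72% of all. These are letter matches only.

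Between stimulated knockout and stimulated control cells none of the 10 genes was called by limma, against 3.46% of all features, and 4 had an unadjusted p below 0.05, namely Tnfrsf13b, Traf4, Traf1 and Tnfaip3. With only features well above background on all 12 arrays tested, 14.6% of them and 3 of the 10 genes were called. Tnfaip3 and Traf1 lay higher in knockout cells without overlap (10.9% of features did so) and Tnfrsf13b and Traf4 lay lower without overlap (14% did so). The median of the 10 changes was -0.05, beside -0.02 for all features.

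In stimulated cells Tnfaip3 read 1.41, 1.56 and 0.92 in control and 2.22, 2.17 and 1.91 in knockout cells, a difference of 0.80 (SE 0.24, 1.74-fold, adjusted p = 0.102). Traf4 read 3.93, 3.40 and 3.52 in control and 2.92, 2.99 and 2.61 in knockout cells, a difference of -0.78 (SE 0.20, adjusted p = 0.0619). With the replicate number as a block, 1865 features were called instead of 796, and these 2 genes were among them (adjusted p = 0.0265 for Tnfaip3 and 0.0436 for Traf4). Tnfaip3 was higher in knockout cells in every one of 25 alternative settings (0.24 to 1.21) and called in 6. Traf4 was lower in every one (-1.33 to -0.37) and called in 5.

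Tnfrsf13b read 2.40, 2.27 and 2.43 in stimulated control and 1.46, 1.98 and 1.24 in stimulated knockout cells on its brighter probe, a difference of -0.80 (SE 0.24, adjusted p = 0.0943). All 3 knockout arrays lay below the control arrays. Its dimmer probe was 2.57-fold lower (-1.36, SE 0.30, adjusted p = 0.0367, over 26296 features), -1.31 on slide 1 and -1.46 on slide 2. That call was lost in 10 of 21 alternative settings (adjusted p from 0.0143 to 0.155), among them the fits without control resting replicate 2 and without any 1 of the 6 stimulated arrays (adjusted p up to 0.124 among these). Traf1 read 2.53, 2.13 and 2.01 in control and 2.90, 2.73 and 2.58 in knockout cells, a difference of 0.51 (SE 0.21, adjusted p = 0.196), which changed sign with median scaling (-0.05). The differences of the other 6 genes ranged from -0.43 for Traf6 (SE 0.27) to 0.21 for Tnfrsf13c (SE 0.27).

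In resting cells 9 of the 10 genes had a lower mean in knockout than in control cells, but so did most of the tested features. None was called by limma, against 0.0131% of all features, and 3 had an unadjusted p below 0.05 (Traf5, Tnfrsf13b and Traf4). Cd40, Tnfrsf13b, Tnfrsf13c, Traf2, Traf3, Traf4 and Traf5 were lower without overlap, as were 26.7% of all features. The median of the 10 was -0.39, beside -0.21 for all features, and 8 of the 10 lay below that. With no filter on dim probes, the median over 49286 features was 0.36. Over the 10275 features well above background on all 12 arrays, as these genes are, it was -0.35. The largest difference was that of Traf5, -0.74 (SE 0.24, 1.67-fold, adjusted p = 0.214). It was followed by Tnfrsf13b (-0.68, SE 0.24), Tnfrsf13c (-0.57, SE 0.27), Traf4 (-0.56, SE 0.20) and Cd40 (-0.40, SE 0.19). Tnfaip3 differed by 0.02 (SE 0.24).

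These genotype differences move with the scaling. The median change of all features in resting cells was -0.81 with median scaling and 0.14 with the percentile taken over spots detected on all arrays, and in stimulated cells -0.58 and 0.39. Such a scaling moves every gene with it. With it or with quantile normalization the sign turned for Traf1, Traf2, Traf6 and Tnfaip3 in resting cells and for Cd40, Tnfrsf13c, Traf1, Traf2, Traf3 and Traf5 in stimulated cells, so the positions given above for these genes hold for the 75th percentile scaling. Tnfrsf13b and Traf4 were lower in knockout cells under every scaling in both states.

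Whether stimulation acted differently in the 2 genotypes was tested as an interaction. In the means, the changes of Traf5, Tnfrsf13c, Tnfaip3 and Traf1 were less negative or positive in knockout cells, but none of the 10 interactions was called by limma (adjusted p from 0.414 to 0.988), against 0.144% of all features. An unadjusted p below 0.05 was found for 2, Traf5 (0.83, SE 0.34) and Tnfaip3 (0.78, SE 0.34). The 4 falls called in control but not in knockout cells (Traf1, Traf2, Traf5 and Tnfaip3) and the rise of Traf4 are thus not shown to differ between genotypes. No setting of the 24 tried gave a called interaction for any of the 10.

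The other genes of the pathway were taken from 7 lists of 79 genes, 68 of them tested. In stimulated control cells 36 were called, 26 lower and 10 higher, and in stimulated knockout cells 21, 13 lower and 8 higher. The shares over all features were 13.1% lower and 14.7% higher in control cells, and 5.2% lower and 10.9% higher in knockout cells. Of the 36, 35 could be read on both slides and had the same direction there, as did all 21. In the counts per list below, a gene that rose, fell, or was higher or lower is a called gene.

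The ligands of the family had 3 tested genes of 9, all lower in stimulated control cells. Ltb, the membrane anchor of lymphotoxin, fell 14.1-fold in control (-3.82, SE 0.19, adjusted p = 2.08e-06) and by 3.91 on the log2 scale in knockout cells. Lta fell by 1.78 on the log2 scale in control cells and by 0.75 in knockout cells (adjusted p = 0.0293). The knockout call was lost in 8 of 25 alternative settings, among them leaving out any 1 resting knockout array or stimulated knockout replicate 1 or 2 (adjusted p from 0.00334 to 0.406 over the settings). Tnf was called lower in control cells (-2.13, SE 0.36), but only resting control cells had it well above background on all 3 arrays and stimulated control cells on 1 of 3, so the size of the fall is uncertain. The ligands of CD40, BAFF-R and TACI themselves (Cd40lg, Tnfsf13b, Tnfsf13) did not pass the filter.

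Other receptors that bind TRAFs gave 2 rises and 1 fall among 9 tested in control cells. Tnfrsf17 (BCMA), the receptor for APRIL and BAFF on plasma cells, went from -2.89 ± 0.12 to 1.96 ± 0.89 (28.9-fold, adjusted p = 0.000326; 1 of 3 resting arrays well above background). In knockout cells it went from -0.83 ± 0.43 to -1.64 ± 1.51 (adjusted p = 0.512), with 2 of 3 stimulated arrays well above background. BCMA was 12.2-fold lower in stimulated knockout than control cells (-3.61, SE 0.66, adjusted p = 0.0193), and its interaction of -5.66 (SE 0.93) was not called (adjusted p = 0.0582). That interaction was called in 7 of 23 alternative settings, among them the slide block (adjusted p = 0.0395), normexp (0.0174), median scaling (0.0133) and the trended robust variance (0.00393), over a range of 0.00393 to 0.303. It was also called without control stimulated replicate 2 or knockout stimulated replicate 3. The call between genotypes was lost in 6 of 24 alternative settings (adjusted p from 0.000812 to 0.145 over the settings), among them no filter (0.108). Others were the fits without control stimulated replicate 1 or knockout stimulated replicate 1 or 2 (adjusted p = 0.0693, 0.0721 and 0.0796). Tnfrsf18 (GITR) rose in both genotypes (0.83 and 0.99). Tnfrsf1a, the main TNF receptor, fell by 1.45 in control cells and by 0.76 in knockout cells (adjusted p = 0.0284). The knockout call was lost in 10 of 24 alternative settings, among them leaving out any 1 of the 6 knockout arrays (adjusted p from 0.00518 to 0.371 over the settings). Tnfrsf1a was 4.33-fold higher in stimulated knockout than control cells (2.11, SE 0.20, adjusted p = 0.00152), against a control group in which 1 of 3 arrays was well above background.

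In the arm that TRAF3 and the cIAPs restrain, 4 of 7 genes fell in control cells and 3 in knockout cells, and none rose. Nfkb2, precursor of p52, went from 3.57 ± 0.16 to 0.73 ± 0.23 in control and from 3.46 ± 0.45 to 1.18 ± 0.13 in knockout cells (7.15-fold and 4.88-fold, adjusted p = 2.13e-05 and 0.000169). Its partner Relb fell by 2.18 and 1.43 on the log2 scale, and Map3k14, which encodes NIK, by 1.65 in control cells. In knockout cells Map3k14 went from 3.28 ± 0.24 to 2.71 ± 0.30, which was not called. Birc3 (cIAP2) fell in both, with changes of -1.0 in control and -0.98 in knockout cells. The list's median was -1.0 in control and -0.57 in knockout cells. In stimulated cells none of the 7 was called between genotypes (2 at an unadjusted p below 0.05); Relb differed by 0.68 (SE 0.22, adjusted p = 0.117).

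The TAK1, IKK and linear ubiquitin arm moved in both directions, 3 of 15 higher and 3 lower in control cells, with a median of -0.18. Ube2n, the E2 enzyme that builds lysine-linked chains with TRAF6, rose by 1.10 (SE 0.26, adjusted p = 0.00919), and the kinase gene Ripk1 rose by 0.85. Ikbkb, which encodes IKK-beta, fell by 0.94 in control cells. In knockout cells 1 of 15 was called, Map3k7 (TAK1), higher by 0.88 (SE 0.18). Map3k7 also went from 1.90 ± 0.13 to 2.60 ± 0.20 in control cells. The knockout means went from 0.02 to 0.84 for Ube2n, 0.59 to 1.33 for Ripk1 and 1.53 to 1.45 for Ikbkb, without a call. Of 10 tested partners of A20 and other NF-kB brakes, 4 fell and 1 rose in control cells and 3 fell and 1 rose in knockout cells. Nfkbia, the classical inhibitor and a direct NF-kB target, fell 6.80-fold and 4.86-fold, and Nfkbie 4.48-fold and 2.15-fold. In stimulated cells Nfkbie differed between genotypes by 0.79 (SE 0.21, adjusted p = 0.0760), and with the replicate block it was called (adjusted p = 0.0360). Tnip1, an A20-binding protein, fell 2.20-fold in control cells, and Otulin rose by 0.91 in knockout cells. The mean of Tnip1 also went from 4.53 to 3.75 in knockout cells, and that of Otulin from 3.919 to 4.498 in control cells. Counts of these 2 lists fell to 0 and 2 in control cells with median scaling.

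Of 12 other TRAF-interacting genes, 5 fell and 1 rose in control cells, and 1 fell and 2 rose in knockout cells. Traip, a ubiquitin ligase known for its part in DNA replication, rose 6.28-fold and 4.19-fold. Tifa, which links to TRAF6, fell 3.93-fold and 2.96-fold, with 1 stimulated control array left out because its spot was called an outlier. Between genotypes in stimulated cells it differed by 0.93 (SE 0.25, adjusted p = 0.0799, and 0.0439 with the replicate block). Tank, an inhibitor of TRAF signalling, fell 3.35-fold in control cells. Its mean in knockout cells went from -0.04 to -0.62, which was not called. Traf3ip1 was called in knockout cells (2.17, SE 0.64, adjusted p = 0.0416), but it was well above background on all arrays of stimulated knockout cells only and on 1, 0 and 1 of 3 arrays in the other groups. That call was lost in 12 of 24 alternative settings, among them leaving out any 1 of the 6 knockout arrays, control resting replicate 3 or control stimulated replicate 3, and normexp gave 0.42 (adjusted p from 0.00462 to 0.312 over the settings).

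**Figure D4:**
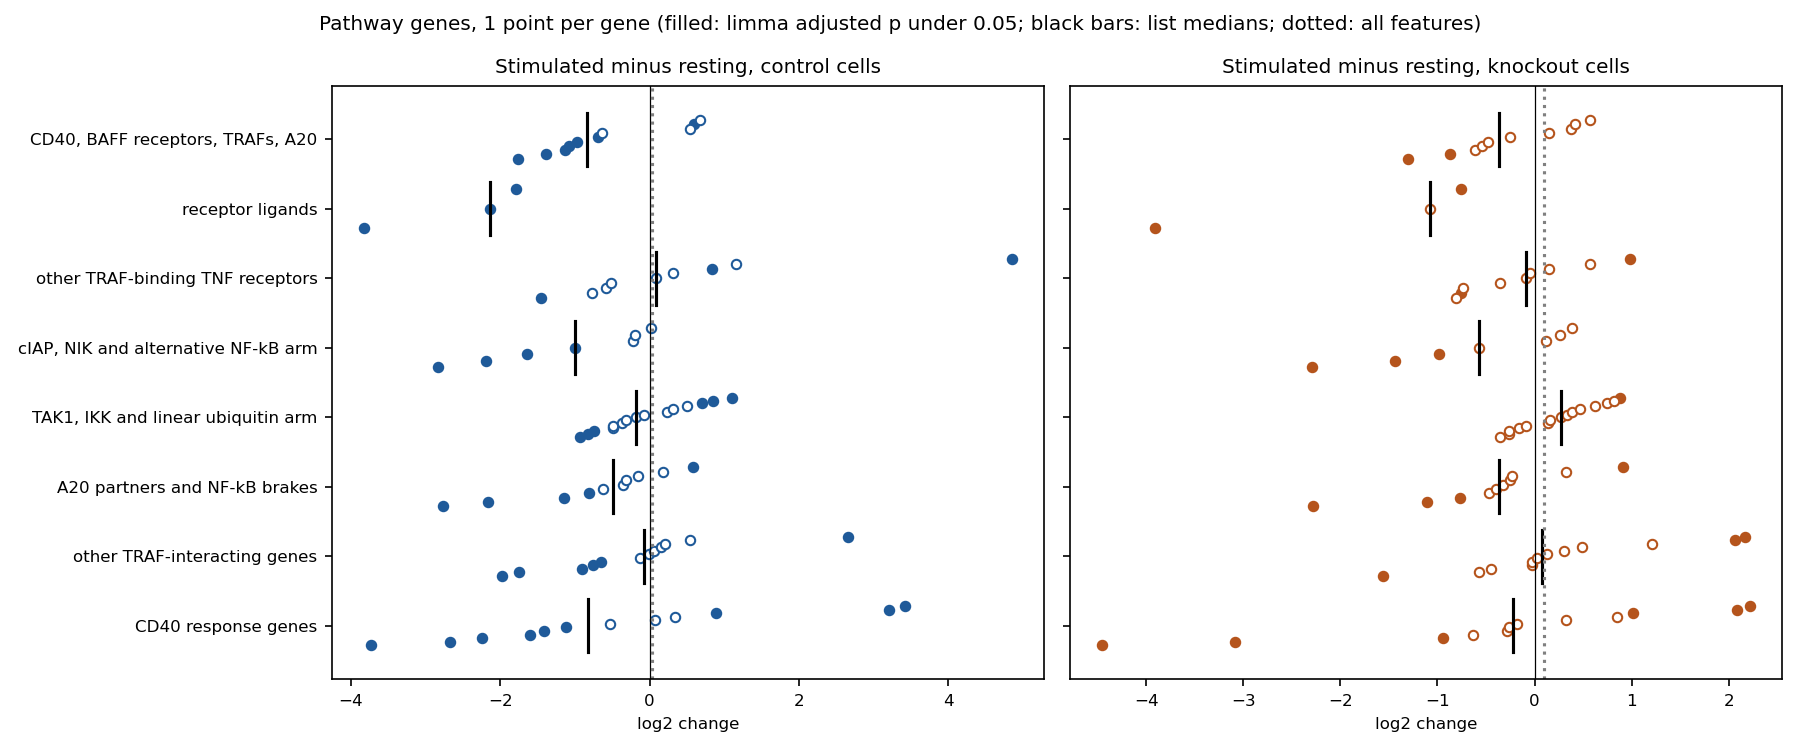
Log2 change on stimulation (x axis) of each of the 10 genes and of every tested gene of the 7 pathway lists (y axis), in control cells on the left and knockout cells on the right, with 1 point per gene, filled for limma adjusted p under 0.05, black bars at list medians and a dotted line at the median of all features. The list medians of the ligands (-2.13 and -1.08) and of the NIK and alternative NF-kB arm (-1.0 and -0.57) lie below those of all features (0.04 and 0.10). Only 3 ligands were tested, and both ligand medians are the values of Tnf. Only resting control cells had Tnf well above background on all 3 arrays.

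Genes that CD40 ligation is known to induce did not change as a block. Of 12 tested, 3 rose and 6 fell in control cells, and 3 rose and 3 fell in knockout cells. Ccnd2, cyclin D2, rose by 3.41 on the log2 scale in control cells (from 2.88 ± 0.19 to 6.29 ± 0.47) and by 2.08 in knockout cells (from 3.01 ± 0.05 to 5.09 ± 0.21), and Bcl2l1, which encodes the survival protein Bcl-xL, rose 9.19-fold in control and 4.64-fold in knockout cells. Slamf1, a lymphocyte surface receptor, fell 13.2-fold in control cells, where 1 of 3 stimulated arrays was well above background, and at least 8.65-fold in knockout cells, where no stimulated array was well above background. Fcer2a (CD23), which marks mature follicular B cells, fell by 2.67 on the log2 scale in control and by 3.09 in knockout cells.

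Between genotypes, 4 of these 12 were called in stimulated cells, against 3.46% of all features. Slamf1 was lower in knockout cells (-1.70, SE 0.33, adjusted p = 0.0246). It was well above background on 1 of 3 control arrays and on no knockout array, so the size of this difference is uncertain. Ccnd2 was 2.30-fold lower (-1.20, SE 0.24, adjusted p = 0.0273) and Fcer2a 2.01-fold lower (-1.01, SE 0.23, adjusted p = 0.0421). Ccr7, the chemokine receptor that leads B cells to the T cell zone, was higher by 1.0 on the log2 scale (SE 0.21, adjusted p = 0.0315; it lies outside the rule for naming genes and was named after its values were seen). Leaving out 1 array gave 0 to 4 calls in this list; Slamf1, Ccnd2 and Fcer2a were each no longer called without control stimulated replicate 1 or 3, or knockout stimulated replicate 1 or 3, and Ccnd2 and Fcer2a also without knockout stimulated replicate 2. Fcer2a's call ended without any 1 resting array as well. All 3 calls were also lost with normexp (-0.51 for Slamf1, adjusted p = 0.329), quantile normalization, no filter and 2 groups only. In resting cells none of the 68 pathway genes was called between genotypes by limma, and 13 had an unadjusted p below 0.05, as did 4534 of all 22981 features. Tnfrsf1a differed there by 1.42 (SE 0.20, adjusted p = 0.0823) and was called in 5 of 24 alternative settings, among them the slide block (adjusted p = 0.0496), over a range of 0.0175 to 0.419.

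Markers of cell types moved with the same comparisons. On the log2 scale, the summed level of 10 mature B cell markers was 10.1 to 10.4 in resting control and 9.56 to 9.79 in resting knockout cells, and 9.04 to 9.53 and 9.16 to 9.44 after stimulation. In control cells 9 of these 10 were called lower on stimulation, against 13.1% of all features. Their median was -1.33, beside the -0.83 of the receptor and adaptor genes. For 6 plasma cell markers, BCMA among them, the sum was 6.49 to 6.77 in resting and 8.63 to 9.31 in stimulated control cells. In knockout cells it was 7.31 to 7.77 at rest and 7.62 to 8.01 when stimulated. Of the 6, 5 were called lower in stimulated knockout than control cells, against 3.46% of all features in either direction. For 10 myeloid markers the sum was 5.49 to 6.27 in resting control and 6.43 to 7.13 in resting knockout cells. After stimulation it was 3.42 to 4.73 in control and 4.84 to 5.20 in knockout cells. Of the 10, 4 were called higher in stimulated knockout than control cells. An unadjusted limma p below 0.05 was found for 7, and the median difference was 2.33. For 7 NK cell markers the sum was 5.14 to 5.22 in stimulated control and 7.78 to 8.73 in stimulated knockout cells (4 of 7 called higher). For 9 T cell markers the ranges were 4.38 to 4.61 and 5.00 to 5.42. Of these 9, 1 was called higher in knockout cells, 6 had an unadjusted limma p below 0.05, and the median difference was 0.85. For 8 dendritic cell markers the ranges overlapped, and 1 of the 8 was called higher. For the 2 of 4 erythroid markers that were tested, the sums were 1.53 to 5.65 and 5.25 to 7.27 at rest in control and knockout cells, and -3.60 to -0.28 and 0.74 to 2.91 after stimulation. The defining markers Cd3e, Itgax and Ncr1 of T, dendritic and NK cells were well above background on 11, 9 and 8 arrays. Itgax read 1.45 to 1.63 in resting control and 2.68 to 2.87 in resting knockout cells. After stimulation it read -3.88 to -2.20 in control and 0.07 to 1.10 in knockout cells. Cd3e and Ncr1 overlapped between genotypes in both states. The part of these other cells in the changes of Cd40, the TRAF genes, Tnfrsf1a and Tnfaip3 was not tested.

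The likeness of patterns over the 12 arrays was measured as the root mean square difference between mean-centred log2 levels, over 12166 genes. Nearest to Cd40 were Samd9l (0.13), Plekha1 (0.15) and Slc15a4 (0.16), where the median gene lay at 0.96. Nearest to Traf3 was Zcchc2 (0.12), followed by Fam117b (0.12) and the repressor gene Rest (0.13). Traf5 lay nearest to Ikbkb (0.10), the IKK-beta gene of the TAK1 and IKK list, then to Apbb3 (0.10) and Rhobtb2 (0.11). Among the 3 genes nearest to Tnfaip3 was Traf1 (0.23), between Snx10 (0.22) and Vrk2 (0.23). Tnfrsf13c lay nearest to Sertad2 (0.11) and Tnfrsf13b to Cox16 (0.15). The 12 arrays share the group differences of the whole array, so these distances describe likeness and carry no test.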

How the data were processed

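RNA of 12 mouse splenic B cell samples was measured on 1-colour Agilent arrays of 62976 spots (3671 controls). The authors deposited scanner files, whose processed intensity is already background-subtracted; Feature Extraction is 10.7.3.1 per the file headers and 9.1 per the submitters' processing notes. The deposited value table holds the same intensities (largest difference 0.497%).

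The log2 processed intensity minus the 75th percentile of each array over non-control spots was used. Spots of a probe were averaged, outlier spots were left out, and a probe was kept if some group had it well above background on each of its 3 arrays. Of a named gene's probes the brightest was used. This gave 22981 features (12295 named genes and 10686 probes without a name here). Group means were fitted with limma 3.58.1 (R 4.3.3), with Benjamini-Hochberg adjustment and a threshold of 0.05; the code was tested on simulated data. The number of arrays limits precision.

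A fold marked "at least" sets a bright group against the lowest signal that is well above background on the dim arrays, or the probe's own where that is higher. Named pathway genes are up to 3 called genes of each list with the largest change in a comparison, or, where none was called, the 1 with the smallest p; the 3 genes nearest each member in pattern were also open to naming. The genes and lists were chosen with earlier results of these data known.

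As a rule, it was asked whether the deviations of every pair of equal replicate number from the group means correlate above 0.1. This was so between genotypes in stimulated cells (0.35, 0.33 and 0.48) and for stimulation in control cells (0.42, 0.43 and 0.51), and not in the other comparisons. The labels do not say what a number stands for. Alternatives covered background correction, scaling, the dim-probe filter, probe choice, the variance model, the groups in the fit, replicate and slide blocks, and left-out arrays.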

Additional observations from a re-analysis of the deposited data

How the results depend on the processing

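For each of the 10 genes, calls and directions were recomputed under up to 25 alternatives. The deposited value table and every probe as its own feature changed no call of these genes, and no gene changed direction for stimulation in control cells. No resting genotype difference and no interaction of these genes was called under any alternative. The cause of each change below was not tested.

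Between genotypes in stimulated cells, where 0 of the 10 genes were called, normexp and quantile normalization each gave 1, the percentile over detected spots 2, the filter on all 12 arrays 3, the trended robust variance 3, and the replicate and slide blocks 2 each; leaving out 1 array gave 0 to 1. For stimulation in control cells (7 called), median scaling left 2 and leaving out 1 array 5 to 7. For stimulation in knockout cells (2 called), quantile normalization and the detected percentile gave 6 each, median scaling 0, no filter 1, and the filter on all 12 arrays, the replicate block and the slide block 4 each; leaving out 1 array gave 2 in every case.

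Over all features, the 0.0131% called between genotypes in resting cells became 0.379% with normexp, 0.148% with quantile normalization, 0.222% with the detected percentile, 0 with no filter, 0.584% with the filter on all arrays, 0.466% with the trended robust variance, 0 with 2 groups only, 0.178% with the replicate block, 0.0522% with the slide block, 0 without both arrays of control replicate 1, and 0.00435% to 0.0522% without 1 array. In stimulated cells 3.46% (34.8% of the calls higher) became 10.2% with the detected percentile (84.3% higher; 2349 in place of 796 calls), 0.114% with no filter (57.1% higher), 14.6% with the filter on all arrays (7.88% higher), 6.68% with the trended robust variance, 0 with 2 groups only, 8.12% with the replicate block (1865 calls), 5.70% with the slide block, 0.261% without both arrays of control replicate 1 (66.7% higher), and 0.622% to 6.73% without 1 array. For stimulation in control cells 27.8% became 14.6% with median scaling, 7.88% with no filter, 49.1% with the filter on all arrays, 16.9% without both arrays of control replicate 1 and 20.8% to 27.4% without 1 array. In knockout cells 16.1% became 7.32% with median scaling, 3.26% with no filter, 36.7% with the filter on all arrays and 10.5% to 18.3% without 1 array. The 0.144% for the interaction became 0.518% with normexp, 0.353% with quantile normalization, 0.0435% with median scaling, 1.38% with the detected percentile, 0 with no filter, 2.59% with the filter on all arrays, 1.46% with the trended robust variance, 0.353% with the slide block, 0 without both arrays of control replicate 1, and 0 to 0.566% without 1 array.

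Directions that turned between genotypes in resting cells were Traf1 (0.21) and Traf2 (0.025) with quantile normalization, Traf1 (0.21), Traf2 (0.034) and Traf6 (0.0315) with the detected percentile, and Tnfaip3 (-0.58) with median scaling. In stimulated cells they were Traf2 (0.24) and Traf3 (0.061) with quantile normalization, Traf2 (0.24) and Traf3 (0.13) with the detected percentile, and Cd40 (-0.50), Tnfrsf13c (-0.34), Traf1 (-0.047) and Traf5 (-0.46) with median scaling. The genotype difference of Ltb there was 0.048 with quantile normalization and 0.045 with the detected percentile. Stimulation in knockout cells turned Tnfrsf13c to -0.34 with quantile normalization and -0.19 with the detected percentile. The interaction of Traf6 was 0.11 with quantile normalization and 0.09 without both arrays of control replicate 1, and that of the dimmer Tnfrsf13b probe 0.20 with quantile normalization. Leaving out 1 array gave ranges across 0 for Cd40 (-0.039 to 0.14) and Traf5 (-0.12 to 0.22) between genotypes in stimulated cells, Tnfaip3 (-0.13 to 0.16) in resting cells and Tnfrsf13c (-0.018 to 0.43) for stimulation in knockout cells. The interactions of Tnfrsf13b (-0.33 to 0.036), its dimmer probe (-0.38 to 0.086), Traf3 (-0.036 to 0.21) and Traf6 (-0.33 to 0.16) did so too. Beyond the results given above, the replicate block changed no call of the 10 genes in the comparisons that met the correlation rule. For stimulation in knockout cells, which did not meet that rule, the replicate block added calls for Tnfaip3 (adjusted p = 0.0314) and Traf2 (adjusted p = 0.0471). Likewise, in resting cells it gave a call for Tnfrsf1a (adjusted p = 0.0440).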
